A study of Mus musculus with 38 samples.

Results

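The 6 genes described here were selected on their low level in the soleus of the torpor (Mid) group: *Tnk2*, *Prkg1*, *Sec14l5*, *Rrad*, *Itgb6* and *Mchr1*. Their promoters were taken as every CAGE cluster with a deposited position no more than 500 bp from an annotated 5′ end of the gene on the same strand. This gave 7 clusters of the 10819 in the table, 1 for each gene and a second one for *Prkg1*. Because the genes were chosen for low values in the Mid group, the difference between the Mid group and any other group is described here without a test, in both experiments, since it is not known which Mid libraries the choice looked at. All mice were young adult C57BL/6J males without any genetic change, and each of the 38 libraries came from the soleus, a slow postural muscle of the lower leg, of 1 mouse. In experiment #1, mice were sampled with free access to food on day 1 (Pre, n = 4), in fasting-induced torpor on day 2 after the food had been withdrawn (Mid, n = 8), and on day 3 after it had been returned (Post, n = 4). The other day 2 groups were kept from torpor: at a high ambient temperature while fasted (HiT, n = 4), by leaving the food in the low temperature (Fed, n = 4), and by gentle touching of fasted mice in the low temperature whenever oxygen consumption started to drop (Dep, n = 4). By the paper, Mid mice were torpid or between bouts of torpor when sampled. The metabolism of Dep mice was like that of the Mid mice that were not torpid. Oxygen consumption in the paper was lower in the HiT and higher in the Fed group than in the Mid group. On feeding in the HiT and Fed groups the sample record and the paper differ, and the description in the paper was used. Experiment #2 was a second batch with Pre (n = 2), Mid (n = 5) and Post (n = 3) mice, and all mice were sampled late in the dark phase. One or both soleus muscles of a mouse were used, and the groups that differ in food or temperature also differ in day from Pre.

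The 6 genes act at different points of cell signalling. TNK2, also known as ACK1, is a non-receptor tyrosine kinase that binds the active form of the small GTPase CDC42. PRKG1 is the cyclic GMP-dependent protein kinase through which nitric oxide and natriuretic peptides relax smooth muscle. RRAD is a small GTPase of the RGK family that lowers the current through voltage-gated calcium channels by way of their beta subunits. ITGB6 pairs with the alpha V subunit to form an integrin of epithelia that activates latent TGF-beta. MCHR1 is the G protein-coupled receptor of melanin-concentrating hormone, best known from the brain, where it promotes feeding and energy storage. SEC14L5 belongs to a family of proteins with a lipid-binding SEC14 domain and has been studied little.

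The libraries held between 18257657 and 39176649 tags in clusters in experiment #1 and between 9359994 and 20914855 in experiment #2. The TMM factors, which correct for tags taken up by a few strong promoters, ran from 0.679 in HiT 4 to 1.21 in experiment #1 and from 0.921 to 1.07 in experiment #2. In the library HiT 4 the 10 strongest clusters took 40.3% of the tags, which lowers all of its TPM values. Slow muscle markers were present with all 7 genes in each group (summed level 6503 to 18022 TPM in experiment #1). Macrophage markers stood apart in the HiT group, where 5 of 6 genes had a cluster and summed to between 114 and 350 TPM, against 43.1 to 76.7 TPM in the Pre group. In bulk muscle, fewer cells of a type and less RNA per cell cannot be told apart. The member clusters had between 4 and 5296 tags per library, and none was at 0.

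Where the promoters lie is given in mm10. The *Tnk2* cluster spans chr16:32661119-32661331 on the plus strand, with its highest position 7 bp downstream of 1 of the 17 annotated 5′ ends of the gene. That end belongs to a coding transcript annotated with 2 exons, while in the longest coding transcript over the position, which has 15 exons, it falls in intron 1. The upstream cluster of *Prkg1* spans chr19:31764688-31765324 on the minus strand, with its highest position 226 bp upstream of the annotated start of the full-length coding transcript. A processed transcript is also annotated to start in its window. The internal cluster of *Prkg1* spans chr19:30625395-30625567, 1139574 bp into the gene, in intron 9 of the full-length transcript of 18 exons, and 32 bp downstream of the start of a non-coding transcript of 2 exons. Only the start of an RNA is seen by CAGE, so how far the RNA of the internal *Prkg1* cluster or of the *Tnk2* cluster extends was not tested. The *Sec14l5* cluster (chr16:5146844-5147168, plus strand) and the *Itgb6* cluster (chr2:60722412-60722730, minus strand) have their highest positions 157 bp and 2 bp upstream of the gene. The clusters of *Rrad* (chr8:104631078-104631395, minus strand) and *Mchr1* (chr15:81235346-81235816, plus strand) have theirs in the 5′ UTR, in exon 1, at 36 bp and 116 bp from the annotated start. All were weak to moderate promoters: by mean TPM over the 38 libraries, the share of clusters with a lower mean was 3.4% for *Sec14l5*, 4.0% for *Mchr1*, 23.8% for *Tnk2*, 37.4% for *Itgb6* and 73.9% for *Rrad*.

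Promoter windows of 300 bases from RefSeq (GRCm38.p6) overlapped 4 of the 7 clusters, and are shown so that 3 promoters that were low in the Mid group (*Sec14l5*, *Itgb6* and *Mchr1*) can be set beside the upstream *Prkg1* promoter, which was not. Each window runs 5′ to 3′ from 250 bases before to 50 bases after a RefSeq start. Runs of capitals mark matches to the motifs searched, and a single capital marks the deposited position with the most tags. That position is base 94 of the window for *Sec14l5*, 209 for *Itgb6* and 25 for *Prkg1*. For *Mchr1* it lies downstream of the window. The windows thus hold unlike lengths of sequence upstream of that position, which limits the comparison of motifs and GC content.
Sec14l5, chr16:5146859-5147158, plus strand: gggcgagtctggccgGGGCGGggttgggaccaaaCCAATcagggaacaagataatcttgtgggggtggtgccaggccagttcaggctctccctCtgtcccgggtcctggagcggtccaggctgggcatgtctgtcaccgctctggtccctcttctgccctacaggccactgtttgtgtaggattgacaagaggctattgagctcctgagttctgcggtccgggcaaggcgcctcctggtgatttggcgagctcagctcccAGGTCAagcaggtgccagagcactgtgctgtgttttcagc
Itgb6, chr2:60722554-60722853, minus strand: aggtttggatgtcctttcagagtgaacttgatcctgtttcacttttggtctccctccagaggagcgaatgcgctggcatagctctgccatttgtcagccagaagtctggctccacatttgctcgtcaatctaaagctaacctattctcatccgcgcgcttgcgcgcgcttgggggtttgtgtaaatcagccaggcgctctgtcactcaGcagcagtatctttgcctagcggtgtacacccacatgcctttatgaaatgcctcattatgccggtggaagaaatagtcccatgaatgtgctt
Mchr1, chr15:81235249-81235548, plus strand: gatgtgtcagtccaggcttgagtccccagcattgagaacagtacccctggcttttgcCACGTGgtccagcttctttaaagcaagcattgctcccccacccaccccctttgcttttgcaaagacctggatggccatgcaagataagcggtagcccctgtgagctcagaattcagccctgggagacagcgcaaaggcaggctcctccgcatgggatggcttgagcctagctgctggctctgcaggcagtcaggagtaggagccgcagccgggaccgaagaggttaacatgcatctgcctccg
Prkg1 upstream, chr19:31764984-31765283, minus strand: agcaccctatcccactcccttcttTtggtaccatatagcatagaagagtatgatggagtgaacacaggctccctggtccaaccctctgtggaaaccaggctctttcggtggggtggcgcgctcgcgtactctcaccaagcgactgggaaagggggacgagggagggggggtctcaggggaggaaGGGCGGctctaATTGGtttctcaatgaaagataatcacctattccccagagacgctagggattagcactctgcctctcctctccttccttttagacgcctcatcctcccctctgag

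On both strands, 10 short motifs were searched: the TATA box (TATAAA), an E-box (CACGTG), a second E-box (CAGCTG), the CCAAT box (CCAAT), the cyclic AMP element (TGACGTCA), the AP-1 site (TGANTCA), the GC box (GGGCGG), the forkhead site (GTAAACA), the nuclear receptor element (AGGTCA) and a MEF2-like motif. No pair of matches overlapped in these windows. *Sec14l5* held the GC box, the CCAAT box and the nuclear receptor element, which 35.7%, 37.4% and 16.3% of all 32851 RefSeq promoters of this length hold. *Mchr1* held the first E-box, found in 7.2% of all promoters. The upstream *Prkg1* window held the GC box and, on the other strand, the CCAAT box. None of the 10 motifs matched in the *Itgb6* window. No motif was shared by the 3 windows of promoters that were low in the Mid group, and both motifs of the upstream *Prkg1* window were also in that of *Sec14l5*. Both lie upstream of the marked position in *Sec14l5* but downstream of it in *Prkg1*. In the windows of *Sec14l5*, *Itgb6* and *Prkg1* a pyrimidine-purine pair, the usual signature of a start site, lay 2 bases downstream of the marked position. The GC content was 61.0% for *Sec14l5*, 50.3% for *Itgb6*, 58.0% for *Mchr1* and 55.3% for *Prkg1*, against a median of 52.7% over all promoters.

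**Figure D1:**
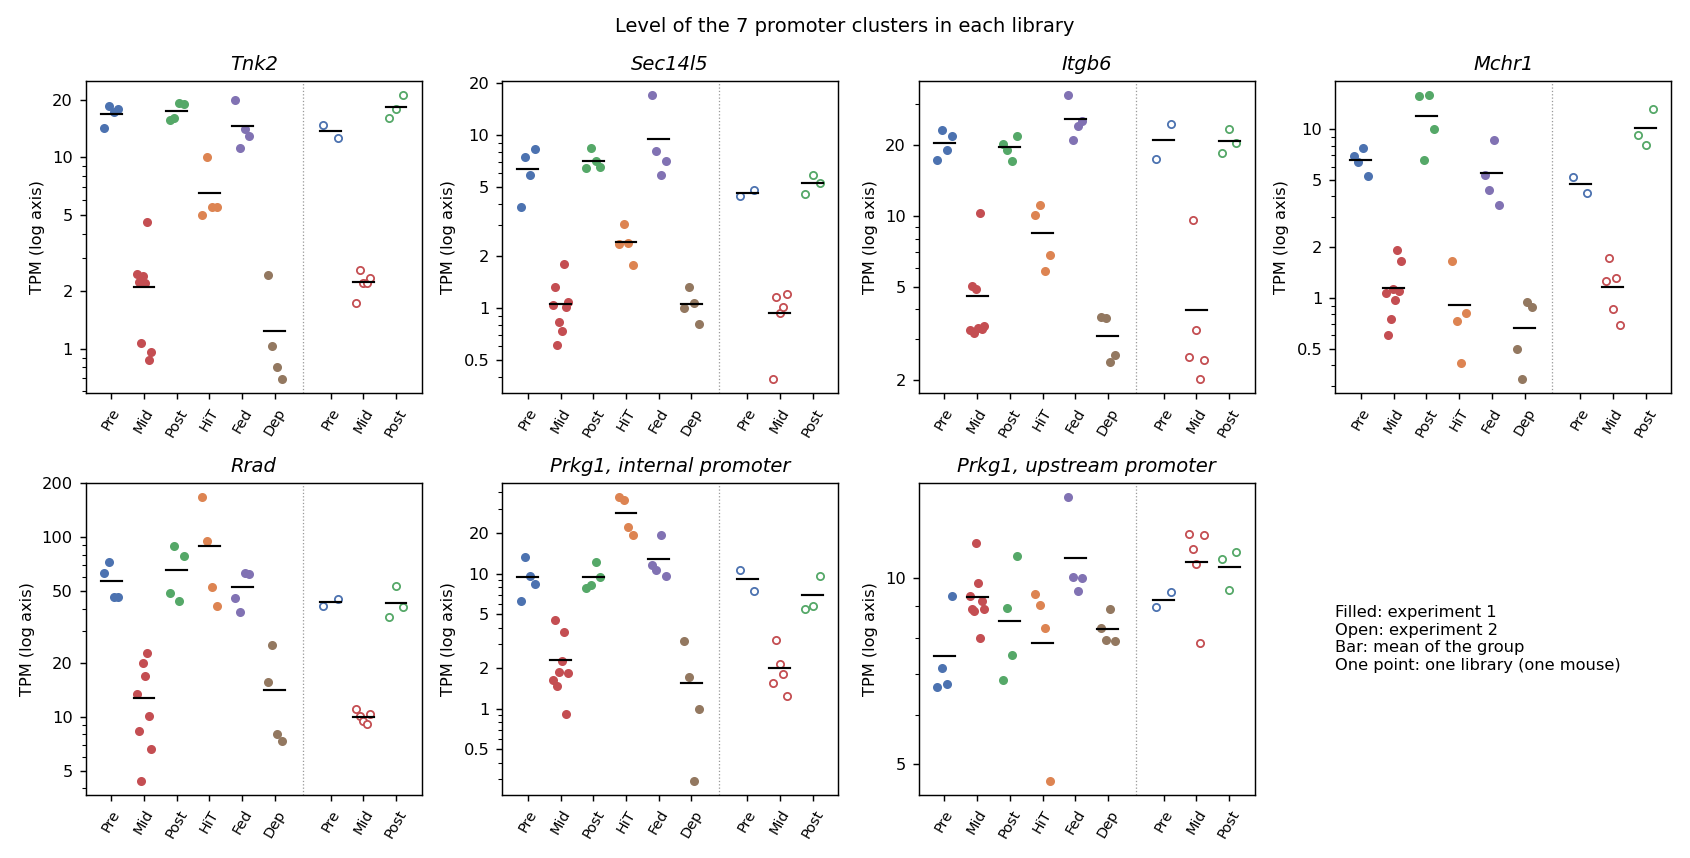
TPM (log axis) of the 7 clusters in each of the 38 libraries, by group, with filled points for experiment #1, open points for experiment #2 and a bar at the mean of each group. Of the 7, 6 clusters are low in both the Mid and the Dep groups, while in the HiT group *Mchr1* is low (mean 0.903 TPM) and the internal *Prkg1* promoter (28.4 TPM) and *Rrad* (89.2 TPM) have their highest means.

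The 6 low promoters differed from each other in the groups other than Mid. It is not known whether the choice also looked at the Pre libraries. If so, the comparisons against Pre are not independent of the choice. In fasted mice kept from torpor by touching, all 6 were low, with ranges that overlapped those of the Mid group. In fasted mice at a high ambient temperature, *Mchr1* was again low, *Tnk2*, *Sec14l5* and *Itgb6* were lower than in the Pre group but less so, and the internal promoter of *Prkg1* was higher. *Rrad* spread widely in that group and did not differ from the Pre group beyond the test. In fed mice on day 2 none of the 6 differed from the Pre group beyond the test. In the Dep group 6 of 7 clusters were down-regulated against the Pre group, where 12.1% of all 10776 clusters were down-regulated and 13.7% up-regulated. Against the Fed group, which shares the day and the low temperature with the Dep group, the same 6 of 7 clusters were down-regulated (20% of all clusters). Between Mid and Dep only 219 of all 10776 clusters were called. The choice on low Mid levels may therefore also fix the Dep counts, and nothing is read from them. The same limit holds for each Dep fold change and FDR of the 6 low promoters below, against the Pre, Fed or HiT group. In the HiT group against the Pre group 4 of 7 clusters were down-regulated (14.9% of all clusters) and 1 was up-regulated (18.5%). Against the Fed group these counts were again 4 (20%) and 1 (23.3%). In the Dep group against the HiT group 5 of 7 clusters were down-regulated (15.3% of all clusters) and none was up-regulated (11.3%). In the Fed group against the Pre group 1 of 7 clusters was called, in the direction up (11.2% of all clusters were called in either direction). The comparisons against Pre share the 4 Pre libraries, and those against Fed and HiT share libraries in the same way.

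**Figure D2:**
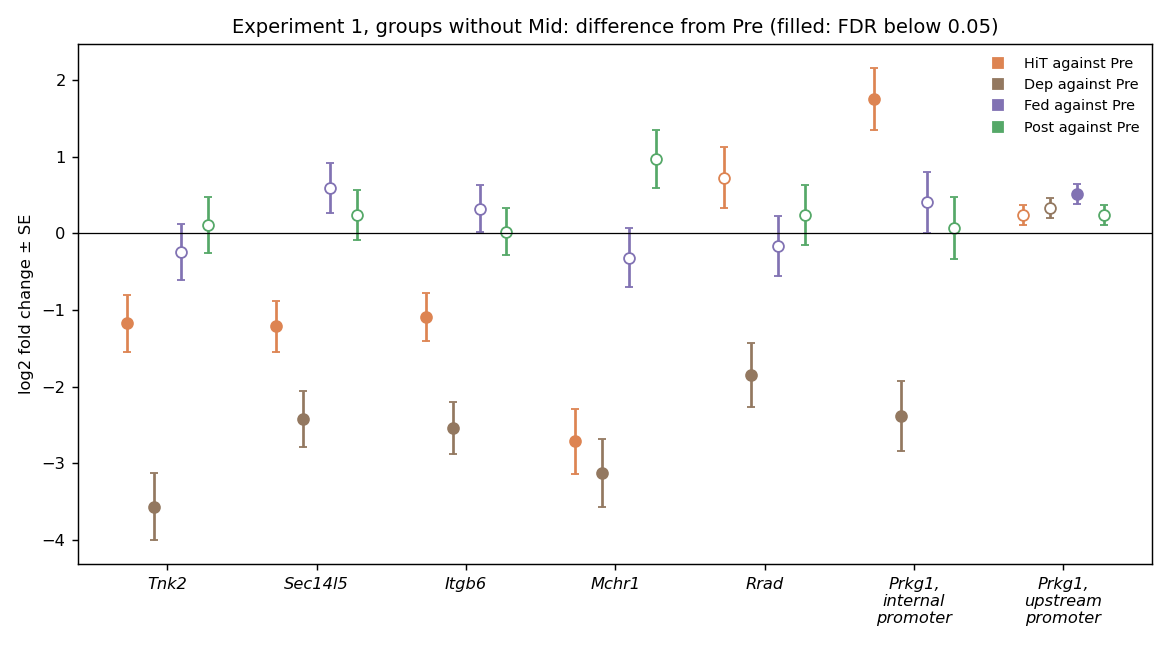
Log2 fold change against the Pre group of experiment #1, with SE, of the 7 clusters in the HiT, Dep, Fed and Post groups; filled points have an FDR below 0.05 by edgeR. In the Dep group 6 clusters lie between −3.56 and −1.84, in the HiT group the values run from −2.71 to 1.76, and in the Post group none is filled. The choice on low Mid levels may also fix the Dep values.

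Library size alone, without TMM, moved the median log2 fold change of all clusters from −0.001 to −0.18 in Dep against Pre and from 0.04 to −0.13 in HiT against Pre. The split of all calls into higher and lower then became 365 and 1079 in place of 1479 and 1304 in Dep against Pre, and 584 and 1390 in place of 1997 and 1607 in HiT against Pre. In Dep against Fed the median moved to −0.23 and in HiT against Fed to −0.21. The calls of the 6 low promoters in these 4 comparisons were the same under this scaling.

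*Tnk2*, the CDC42-binding kinase, had 14.2, 18.5, 17.2 and 17.9 TPM in the Pre libraries. In the Mid libraries it ran from 0.879 to 4.62 TPM with a median of 2.23, and all 8 lay below each Pre library. The log2 fold change of Mid against Pre was −2.90 ± 0.33 (SE), or 7.45-fold lower. The choice of the gene on low Mid levels may fix this difference. In the Dep libraries *Tnk2* had 2.43, 1.03, 0.804 and 0.694 TPM, and it was 11.8-fold lower than in the Pre group (log2 fold change −3.56 ± 0.44, FDR 1.58e-06), the largest difference among the 7 clusters in this comparison. That choice may also fix the differences of the Dep group, here and against the HiT group below. The HiT libraries had 5.01, 10.002, 5.50 and 5.48 TPM. They lay above all Mid and Dep libraries and below all Pre and Fed libraries. *Tnk2* was 2.26-fold lower in the HiT than in the Pre group (−1.17 ± 0.38, FDR 0.0179) and 5.24-fold lower in the Dep than in the HiT group (−2.39 ± 0.43, FDR 0.000172). The call of HiT against Pre rested on the library HiT 1, without which the FDR was 0.0615. Against the Fed group, HiT was lower by −0.93 ± 0.38 with an FDR of 0.0484, and this call was lost when any 1 of 21 of the 28 libraries was left out (highest FDR 0.169, without Fed 1). It held without Mid 3, Mid 6, Mid 7, Mid 8, HiT 2, Dep 1 or Dep 3.

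*Prkg1*, the cyclic GMP-dependent kinase, gave different results at its 2 promoters. The internal promoter had 6.24, 13.4, 9.68 and 8.42 TPM in the Pre libraries, and 0.910 to 4.56 TPM (median 1.87) in the Mid libraries, without overlap between these groups. The Dep libraries had 3.16, 1.73, 0.292 and 1.00 TPM, 5.21-fold below the Pre group (−2.38 ± 0.46, FDR 0.000340). As for *Tnk2*, the choice on low Mid levels may fix the differences of the Dep group from the Pre and HiT groups. The HiT libraries had 37.1, 35.0, 22.1 and 19.3 TPM and were the highest of all groups. The internal promoter was 3.38-fold higher in the HiT than in the Pre group (1.76 ± 0.41, FDR 0.00143), 2.55-fold higher than in the Fed group (1.35 ± 0.40, FDR 0.00825), and 17.6-fold lower in the Dep than in the HiT group (−4.14 ± 0.47, FDR 5.18e-07). The 2 groups last compared had both been fasted on day 2 and kept from torpor. HiT 1 and HiT 2, the libraries with the highest macrophage marker sums (350 and 224 TPM), also had the highest levels of the internal promoter and of *Rrad*, and the part of these cells in the result was not tested.

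The upstream promoter of *Prkg1*, which lies by the annotated start of the full-length kinase, was not low in the Mid group. It had 6.66, 7.15, 6.74 and 9.36 TPM in the Pre libraries and 8.01 to 11.4 TPM (median 9.06) in the Mid libraries, a log2 difference of 0.40 ± 0.11. In the Dep and HiT groups it differed from the Pre group by 0.33 ± 0.13 (FDR 0.0639) and 0.24 ± 0.13 (FDR 0.165). The ranges of 2 SE on either side of these estimates run from 0.07 to 0.59 and from −0.02 to 0.50. The difference in the Dep group passed the test when any 1 of Pre 4, Mid 6, HiT 3, HiT 4, Fed 1 and Fed 3 was left out (FDR 0.0223 to 0.0488). It was 1.43-fold higher in the Fed than in the Pre group (0.51 ± 0.13, FDR 0.0176). That call was lost without TMM (FDR 0.197), in a fit of both groups alone (FDR 0.104), and without Pre 1, Pre 2, Fed 1 or Fed 2, where the FDR ran from 0.0585 to 0.1004. Between the HiT and Fed groups it differed by −0.27 ± 0.13 (FDR 0.0930), which passed the test without Fed 3 (FDR 0.0232) and with upper-quartile scaling (FDR 0.0442).

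Of all tags from both *Prkg1* promoters, the upstream one gave 45.0% ± 8.6 (SD, n = 4) in the Pre group and 80.8% ± 8.8 (n = 8) in the Mid group. The share was 85.0% ± 10.3 in the Dep, 21.9% ± 3.6 in the HiT, 46.5% ± 9.3 in the Fed and 47.6% ± 7.1 in the Post group (n = 4 each). Neither the 4 Dep nor the 4 HiT libraries overlapped with the Pre libraries in this share. By exact two-sided permutation tests over libraries, the share in the HiT group differed from that in the Pre group by −23.1 percentage points (p = 0.0286). This is the smallest p that 4 against 4 libraries allow, and it was 0.0476 after Benjamini-Hochberg adjustment over 10 comparisons. In the Dep group the share was 40.0 points higher than in the Pre group. No p-value is given there, as the choice on low Mid levels may fix this difference. The Fed and Post groups differed from the Pre group by 1.51 and 2.56 points (exact permutation p = 0.886 and 0.714).

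**Figure D3:**
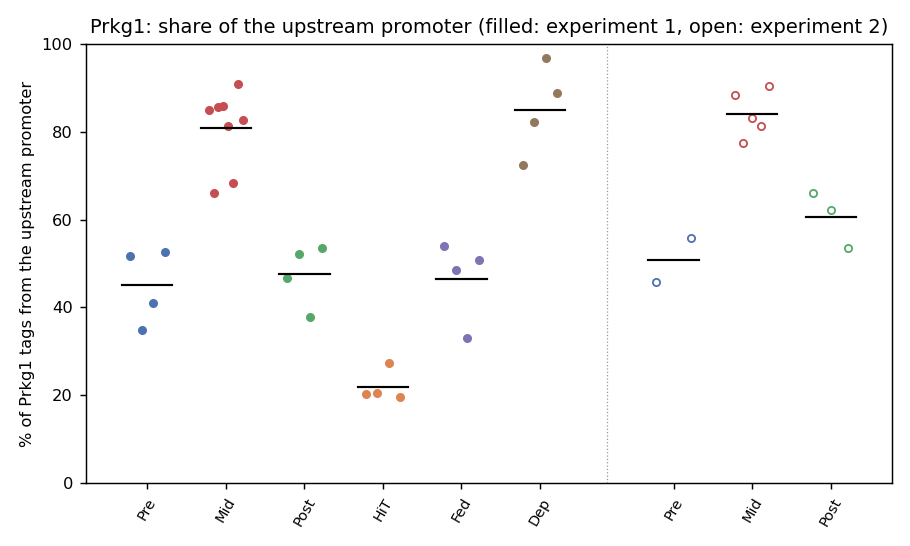
Percentage of the *Prkg1* tags that came from the upstream promoter in each library, by group, with a bar at the group mean (filled: experiment #1, open: experiment #2). The Mid and Dep libraries lie between 66.2 and 96.8%, and the HiT libraries between 19.5 and 27.3%.

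*Rrad*, the inhibitor of calcium channels, was the strongest of these promoters. It had 63.4, 72.8, 46.7 and 46.5 TPM in the Pre libraries and 4.39 to 22.6 TPM (median 11.7) in the Mid libraries, which did not overlap. The Dep libraries had 15.6, 25.2, 8.04 and 7.32 TPM, 3.59-fold below the Pre group (−1.84 ± 0.42, FDR 0.00169). Here too the choice on low Mid levels may fix the differences of the Dep group. The HiT libraries spread most widely, with 168, 94.9, 52.9 and 41.2 TPM. They overlapped with the Pre libraries, and the difference of 0.73 ± 0.40 did not pass the test (FDR 0.164). Without HiT 1 that difference was 0.38 (FDR 0.506). *Rrad* was 5.95-fold lower in the Dep than in the HiT group (−2.57 ± 0.42, FDR 5.86e-05), and the groups did not overlap.

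*Mchr1*, the receptor of melanin-concentrating hormone, had 6.92, 6.35, 7.72 and 5.26 TPM in the Pre libraries. The Mid libraries had 0.60 to 1.92 TPM with a median of 1.09, between 15 and 61 tags each. In the HiT libraries it had 1.65, 0.734, 0.413 and 0.816 TPM, and in the Dep libraries 0.498, 0.330, 0.950 and 0.886 TPM. All 8 of these libraries lay below each Pre library. For the Dep group, the choice on low Mid levels may fix this and the differences below. *Mchr1* was 6.55-fold lower in the HiT than in the Pre group (−2.71 ± 0.43, FDR 2.08e-05) and 8.70-fold lower in the Dep than in the Pre group (−3.12 ± 0.44, FDR 9.97e-06). It was the only one of the 6 low promoters that did not differ beyond the test between the Dep and HiT groups (−0.41 ± 0.45, FDR 0.559; 2 SE on either side run from −1.31 to 0.49). Against the Fed group, *Mchr1* was lower by 5.26-fold in the HiT group (−2.39 ± 0.42, FDR 7.66e-05). The gene of its ligand, *Pmch*, had no cluster in the table.

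After refeeding, the mean level of *Mchr1* was above that of the Pre group, which were other mice, but not beyond the test in either experiment alone. The Post libraries had 15.7, 6.61, 15.9 and 10.1 TPM, and 3 of 4 were above each Pre library. The difference of 1.96-fold (0.97 ± 0.38) did not pass the test in experiment #1 (FDR 0.246). In experiment #2 the Post libraries had 9.29, 8.08 and 13.1 TPM and the Pre libraries 5.25 and 4.2 TPM, without overlap. The difference of 2.11-fold (1.07 ± 0.35) did not pass the test there either (FDR 0.289). When both experiments were fitted together over 38 libraries, adjusting for experiment, *Mchr1* was the only one of the 7 clusters called (1.00 ± 0.29, FDR 0.0289). That fit called 731 of all 10819 clusters. In the separate fits 0 of 7 clusters were called between Post and Pre in either experiment, against 1.85% of all clusters in experiment #1 and 0.111% in experiment #2, where edgeR called 12 clusters and 1205 had an unadjusted p under 0.05. None of the 7 had an FDR below 0.05 by DESeq2 in either experiment, and the unadjusted p of edgeR was under 0.05 for *Mchr1* in both (0.0179 and 0.0107) and for *Tnk2* in experiment #2 (0.0410).

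*Itgb6*, the integrin subunit, had 17.3, 23.3, 19.2 and 21.9 TPM in the Pre libraries and 3.16 to 10.3 TPM (median 3.36) in the Mid libraries. The highest Mid value came from Mid 6, which was also the highest Mid library for *Tnk2*, *Sec14l5*, *Rrad* and *Mchr1*. The Dep libraries had 3.72, 3.67, 2.37 and 2.54 TPM, 5.799-fold below the Pre group (−2.54 ± 0.34, FDR 5.06e-06). Differences of the Dep group may again be fixed by the choice on low Mid levels. The HiT libraries had 10.1, 11.1, 5.85 and 6.82 TPM, between the Dep and the Pre libraries without overlap with either. *Itgb6* was 2.12-fold lower in the HiT than in the Pre group (−1.08 ± 0.31, FDR 0.00878) and 2.73-fold lower in the Dep than in the HiT group (−1.45 ± 0.33, FDR 0.00199). Of 6 epithelial marker genes, 1 (*Krt5*) had a cluster, and its level was 0 in the 28 libraries of experiment #1. In experiment #2 *Krt5* was above 0 in 5 of 10 libraries, with 10.1 TPM in Mid 11, 1.45 in Mid 9, 1.21 in Mid 12, 0.750 in Mid 10 and 0.179 in Pre 6. The part of such cells in the *Itgb6* levels was not tested.

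*Sec14l5* had 3.83, 7.46, 5.91 and 8.35 TPM in the Pre libraries and 0.611 to 1.79 TPM (median 1.02) in the Mid libraries, again without overlap. The Dep libraries had 0.997, 1.32, 1.06 and 0.809 TPM, 5.35-fold below the Pre group (−2.42 ± 0.36, FDR 1.95e-05). By the choice on low Mid levels, the differences of the Dep group may be fixed for this gene as well. The HiT libraries had 2.35, 3.07, 2.38 and 1.76 TPM and lay below all Pre libraries. *Sec14l5* was 2.32-fold lower in the HiT than in the Pre group (−1.21 ± 0.34, FDR 0.00673), 3.49-fold lower than in the Fed group (−1.80 ± 0.34, FDR 0.000166), and 2.31-fold lower in the Dep than in the HiT group (−1.21 ± 0.36, FDR 0.0136). The Mid and Dep values rest on 17 to 57 tags per library.

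Placed in order of their mean level, the groups of experiment #1 fell into a low and a high set for most of these promoters. For *Tnk2*, *Sec14l5* and *Itgb6* the order from the lowest was Dep, Mid and HiT, followed by the Pre, Post and Fed groups in an order that differed by gene, in which neighbouring groups overlapped. For *Mchr1* the lowest groups were Dep (0.666 TPM), HiT (0.903) and Mid (1.15), whose ranges overlapped, and Fed, Pre and Post (5.49 to 12.1) followed. For *Rrad* the Mid (12.8) and Dep (14.04) groups overlapped, and Fed, Pre, Post and HiT (52.6 to 89.2) did not reach down to them. For the internal promoter of *Prkg1*, Dep (1.55) and Mid (2.29) overlapped, then came Post, Pre and Fed (9.42 to 12.8), and the HiT group (28.4) stood above all others without overlap. The Mid and Dep groups overlapped for all 7 clusters, with log2 differences between −0.23 and 0.73. This likeness is not particular to these clusters, as 219 of all 10776 clusters were called between Mid and Dep.

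In experiment #2 the same 6 promoters were low in the Mid libraries, which is described without a test because the choice of the genes may also rest on these libraries. *Tnk2* had 14.8 and 12.7 TPM in the Pre, 1.74 to 2.595 (median 2.21) in the Mid, and 16.1, 17.9 and 21.1 in the Post libraries. *Rrad* had 41.4 and 45.3 TPM in the Pre, 9.06 to 10.997 (median 10.04) in the Mid, and 36.0, 53.2 and 40.6 in the Post libraries. For each of the 6 promoters, all 5 Mid libraries lay below all Pre and Post libraries. The log2 fold changes of Mid against Pre were −2.55 ± 0.16 for *Tnk2*, −2.14 ± 0.32 for the internal *Prkg1* promoter, −2.21 ± 0.33 for *Sec14l5*, −2.06 ± 0.14 for *Rrad*, −2.32 ± 0.44 for *Itgb6* and −1.97 ± 0.32 for *Mchr1*. In experiment #1 the same values were −2.90, −1.93, −2.46, −2.07, −2.02 and −2.39. The upstream *Prkg1* promoter was again not low (0.26 ± 0.17). By the threshold used for all clusters, 6 of 7 were lower in Mid than in Pre (4.44% of all 10816 clusters) and 6 of 7 higher in Post than in Mid (7.73%), counts that the choice of the genes may fix and from which nothing is read. The first count was 4 without Pre 5 and 5 without Pre 6.

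The share of the upstream *Prkg1* promoter was 50.7% ± 7.1 (SD, n = 2) in the Pre, 84.2% ± 5.3 (n = 5) in the Mid and 60.6% ± 6.4 (n = 3) in the Post libraries of experiment #2, and is given as a description for the same reason. Post against Pre, which leaves the Mid libraries out, differed by 9.88 points (exact permutation p = 0.3, 0.375 adjusted). All Pre and all Post libraries of this experiment ran on different sequencing lanes. With lane as a term, Post against Mid was 1.95 ± 0.51 for *Sec14l5* and 2.92 ± 0.75 for *Itgb6*, against 2.37 and 2.28 without it.

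**Figure D4:**
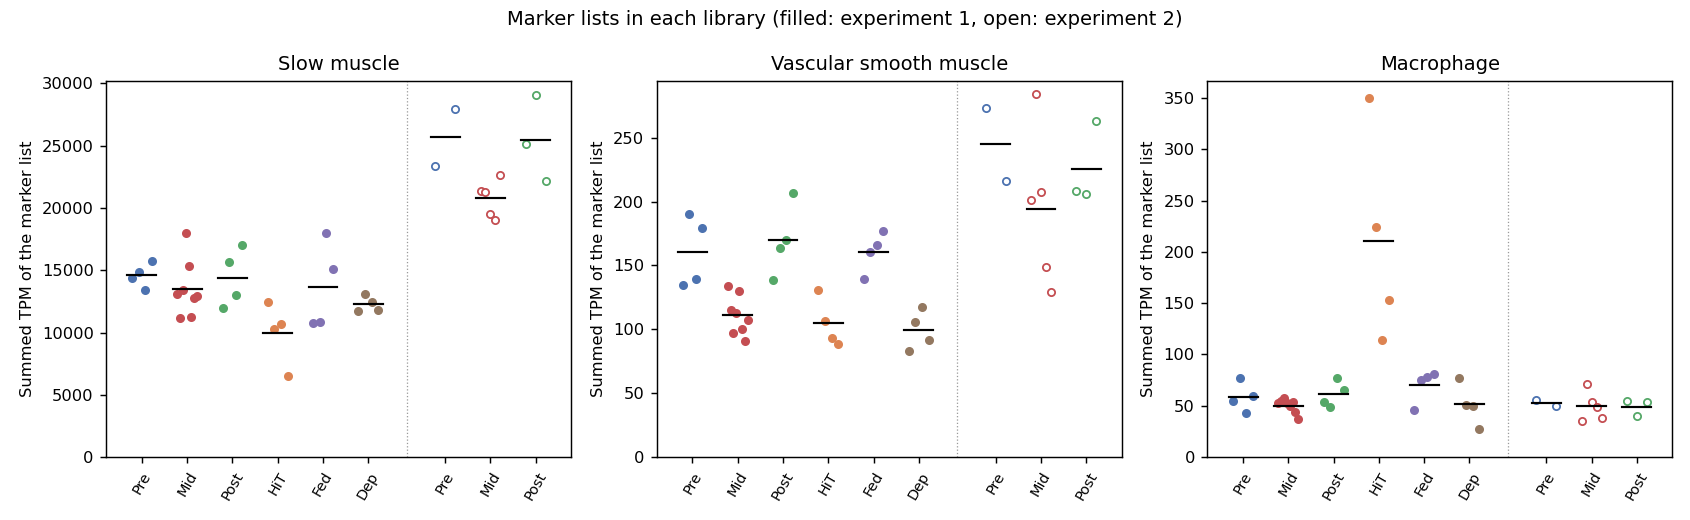
Summed TPM of the markers of slow muscle, vascular smooth muscle and macrophages in each library, by group (filled: experiment #1, open: experiment #2), with a bar at the mean. The macrophage sum is 114 to 350 TPM in the HiT group and at most 81.2 TPM in the other groups, and the smooth muscle sum is lower in the Dep than in the Pre group.

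Since *Prkg1* is abundant in vascular smooth muscle, the markers of that cell type were set beside it. Of 7 genes, 4 had a cluster, and they summed to 83.3 to 118 TPM in the Dep, 90.8 to 134 TPM in the Mid and 88.9 to 131 TPM in the HiT libraries, against 134 to 190 TPM in the Pre libraries, with no overlap. The internal *Prkg1* promoter was low in the first 2 of these groups and highest in the HiT group. This gap lay mostly in *Smtn*, at 24.5 to 30.5 TPM in the Dep, 30.6 to 43.3 TPM in the HiT and 61.5 to 93.5 TPM in the Pre libraries. The levels of *Myh11* (33.4 to 57.4 TPM in Dep, 40.4 to 57.2 in Pre), *Acta2* and *Tagln* overlapped between these groups. In experiment #2 the smooth muscle sums of the Mid (129 to 284 TPM) and Pre libraries (216 to 273 TPM) overlapped. *Smtn* was also the gene whose pattern was most like that of *Mchr1*. The sum of the satellite cell list, in which *Sdc4* was the only one of 4 genes with a cluster, was 163 to 241 TPM in the Dep and 90.0 to 133 TPM in the Pre libraries, while the other genes of the list had none. The slow muscle sum was 6503 to 12452 TPM in the HiT and 11700 to 13107 TPM in the Dep libraries, below the Pre libraries (13449 to 15769 TPM). The endothelial sum in the HiT (170 to 276 TPM) and Dep libraries (211 to 294 TPM) overlapped with that in the Pre libraries but was below that in the Fed libraries (308 to 364 TPM). The sums of the fast glycolytic muscle, adipocyte, Schwann cell, tendon and fibroblast, and neuromuscular junction lists overlapped between the Pre, HiT and Dep libraries. What part these cells have in the results was not tested.

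The partners of the 6 proteins were followed in lists taken from general knowledge of each pathway. In Dep against Pre, calls among the clusters of each list were 1 up and 1 down of 12 for CDC42 and ACK signalling, 0 up and 3 down of 13 for cyclic GMP signalling, 1 up and 0 down of 4 for SEC14 domain lipid carriers, 0 up and 4 down of 11 for the RGK GTPases and the muscle calcium channel, 1 up and 1 down of 13 for integrins and latent TGF-beta activation, and 0 up and 1 down of 12 for melanin-concentrating hormone and its G protein coupling, where 13.7% of all clusters were up-regulated and 12.1% down-regulated. Their median log2 fold changes ran from −0.30 for the calcium channel list to 0.03 for the integrin list, against −0.001 over all clusters. In HiT against Pre, where 18.5% of all clusters were up-regulated and 14.9% down-regulated, the calls in the same order of lists were 2 up and 0 down, 1 up and 3 down, 0 up and 0 down, 2 up and 5 down, 4 up and 0 down, and 1 up and 1 down. The medians ran from −0.23 for cyclic GMP signalling to 0.23 for integrins, against 0.04. In Mid against Pre of experiment #1, where 14.8% of all clusters were down-regulated and 15.4% up-regulated, at most 3 clusters of any list were up-regulated and at most 2 down-regulated, and the list medians ran from −0.05 to 0.04, against 0.006 over all clusters.

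Named partners give the sizes. Among the targets of RRAD, the calcium channel beta subunit *Cacnb1* fell at the stronger of its 2 promoters from 81.8 ± 7.6 to 53.5 ± 4.6 TPM (SD, n = 4 each) in the Dep group (−0.42 ± 0.10, FDR 0.00221) and to 44.2 ± 10.5 TPM in the HiT group (−0.71 ± 0.10, FDR 4.54e-06). Its weaker promoter had −0.47 ± 0.21 in the Dep group (FDR 0.0935) and 0.30 ± 0.20 in the HiT group (FDR 0.264). The pore-forming subunit *Cacna1s* fell in the HiT group (−0.32 ± 0.07, FDR 0.000623) and had −0.17 ± 0.07 in the Dep group (FDR 0.0571). In the same list the channel subunit *Cacng1* (0.62 ± 0.14, FDR 0.00143) and *Rem1*, a relative of *Rrad* (0.46 ± 0.15, FDR 0.0217), rose in the HiT group. In the cyclic GMP list, *Ppp1r12b*, a regulatory subunit of myosin phosphatase, fell at its weaker promoter from 33.4 ± 4.7 to 16.2 ± 2.6 TPM in the Dep group (−0.86 ± 0.15, FDR 0.000103) and to 11.3 ± 0.6 TPM in the HiT group (−1.34 ± 0.15, FDR 2.54e-07). At its stronger promoter *Ppp1r12b* fell in the HiT group (−0.53 ± 0.07, FDR 1.94e-06) and had −0.08 ± 0.07 in the Dep group (FDR 0.413). *Gucy1b1*, a subunit of the nitric oxide receptor, fell in the Dep group (−0.51 ± 0.12, FDR 0.00303). *Vasp*, a substrate of cyclic GMP-dependent kinase, rose in the HiT group (0.57 ± 0.12, FDR 0.000518).

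Among the integrins, *Itgb5*, another beta subunit that pairs with alpha V, moved opposite to *Itgb6* at the weaker of its 2 promoters. That promoter rose from 4.92 ± 1.04 to 12.1 ± 1.5 TPM in the Dep group (1.48 ± 0.20, FDR 5.29e-06) and to 6.23 ± 1.77 TPM in the HiT group (0.52 ± 0.20, FDR 0.0446). The stronger promoter of *Itgb5* had 0.03 ± 0.19 in the Dep group (FDR 0.941) and 0.20 ± 0.19 in the HiT group (FDR 0.429). The matrix protein gene *Tnc* rose from 6.14 ± 1.79 to 105 ± 47 TPM in the HiT group (4.26 ± 0.35, FDR 1.77e-09), the group with the high macrophage sums. In the CDC42 list the adaptor *Grb2* fell at its weaker promoter from 20.1 ± 5.8 to 9.43 ± 0.58 TPM in the Dep group (−0.91 ± 0.19, FDR 0.000807), while its stronger one had −0.52 ± 0.25 (FDR 0.129). The other call of this list in the Dep group was up, for *Wasl* (0.27 ± 0.09, FDR 0.0245). In the HiT group the calls of this list were 2 up and 0 down. Adenylyl cyclase 9 (*Adcy9*), of the melanin-concentrating hormone list, fell from 18.5 ± 1.0 to 10.5 ± 2.7 TPM in the Dep group (−0.67 ± 0.15, FDR 0.00178) and to 10.4 ± 3.2 TPM in the HiT group (−0.69 ± 0.15, FDR 0.00101).

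Likeness between promoters was described by Pearson's r of log2(TMM-scaled CPM + 0.5) over the 28 libraries of experiment #1, which share their groups and so their group differences. The promoters most like *Tnk2* were those of *Kbtbd13*, *Hdac9* and *Asb18* (r = 0.966, 0.964 and 0.962, and 0.962, 0.936 and 0.977 over the 10 libraries of experiment #2). Those most like *Itgb6* were *Asb18*, *Kbtbd13* and *Cited4* (0.981, 0.969 and 0.966), and those most like *Sec14l5* were *Flrt2*, *Itgb6* itself and *Casz1* (0.957, 0.956 and 0.952). *Tnk2* and *Itgb6* thus had 2 of 3 nearest promoters in common. For *Mchr1* they were *Smtn*, *Sema6c* and *Pkig* (0.93, 0.927 and 0.919), and for *Rrad* they were *Gmppb*, *Slc35b4* and *Dusp10* (0.914, 0.909 and 0.899, with 0.431 for *Dusp10* in experiment #2). For the upstream *Prkg1* promoter they were *Gm8066*, *Usp47* and *Ppp1r12a* (0.806, 0.745 and 0.733, with 0.216 for *Usp47* in experiment #2).

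Among the members, r was 0.96 between *Tnk2* and *Itgb6*, 0.956 between *Sec14l5* and *Itgb6* and 0.866 between *Rrad* and the internal *Prkg1* promoter. The 6 low promoters share low Mid levels by choice. Over the 20 libraries other than Mid, the same values were 0.956, 0.949 and 0.871. Between *Mchr1* and the internal *Prkg1* promoter r was 0.378, and 0.19 over these 20 libraries. In experiment #2, where 5 of 10 libraries are Mid and there is no HiT or Dep group, it was 0.879. The upstream *Prkg1* promoter had an r between −0.312 and −0.063 with the other 6.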

How the data were processed

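Promoter activity was measured by nAnT-iCAGE, which sequences the capped 5′ ends of RNA without PCR, in 38 libraries of mouse soleus muscle, 1 per mouse. After trimming, reads were aligned by the authors to mm10 with bwa and hisat2 (versions not given in the sources used here), and start sites were clustered with PromoterPipeline. The deposited counts are tags per cluster and library without normalization, and the deposited TPM values, a CPM unit, give these tags per 1000000 tags of the library. Groups came from the sample labels.

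Clusters were assigned to the nearest 5′ end in GENCODE M21 within 500 bp on the same strand. The test was the quasi-likelihood F test of edgeR 4.0.16 in R 4.3.3, with TMM and group as the only term, in 1 fit of the 28 libraries of experiment #1 (10776 clusters with any tag) and 1 of the 10 libraries of experiment #2 (10816 clusters), so an FDR is a Benjamini-Hochberg value over all clusters, with a threshold of 0.05. SE is that of the log2 fold change, derived from the F statistic. Levels are TPM. The share of *Prkg1* tags was compared by exact permutation over libraries. Libraries of a group were not duplicates (lowest chi-square per cluster 12.4 over 72 pairs). In simulated data with 200 clusters changed by a log2 fold change of 1, 91.5% were recovered in Dep against Pre and 88.0% in HiT against Pre.

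The positions deposited by the authors appear to lie 2 bases upstream of the start: over 2417 plus-strand and 2266 minus-strand clusters, a pyrimidine-purine pair lay 2 bases downstream in 77.5% and 79.2%, and at the position itself in 22.2% and 23.5%. Positions and distances are given as deposited, counted from 1.

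The genes and the lists of partners and markers were chosen with earlier results of these data known. The genes named are the 6 chosen ones, members of these lists, and for each main cluster the 3 clusters with the highest r among the 9441 clusters of genes with a mean of at least 1 CPM. The alternatives were the likelihood ratio test, DESeq2 1.42.0, filterByExpr, no TMM, upper-quartile scaling, fits of the compared groups alone or of all 38 libraries, the replicate number as a block, lane as a term, and each library left out.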

Additional observations from a re-analysis of the deposited data

Results flagged for a closer look

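In all, 5 values stood apart from the rest of their group by Dixon's test at the 95% level, out of 49 combinations of cluster and group, on log2(TPM + 0.1); chance flags about 1 in 20. *Itgb6* was at 10.3 TPM in Mid 6, where the other Mid libraries of experiment #1 ran from 3.16 to 5.04. *Tnk2* was at 10.002 TPM in HiT 2, against 5.01 to 5.50 in the other HiT libraries. The upstream *Prkg1* promoter was at 13.5 TPM in Fed 1 (others 9.52 to 10.02) and at 7.85 TPM in Mid 12 of experiment #2 (others 10.6 to 11.8). *Sec14l5* was at 0.386 TPM in Mid 9 of experiment #2 (others 0.927 to 1.196), which is 4 tags. The explanations of these values were not tested.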

How the results depend on the processing

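The number of the 7 clusters called was within 1.5 times of the reported one under all alternatives for HiT against Pre, Dep against Pre, HiT against Fed, Dep against HiT, Dep against Fed, and in experiment #2 Mid against Pre and Post against Mid. It moved for Fed against Pre, from 1 to 0 without TMM and in a fit of the compared groups alone, and with single libraries left out it ran from 0 to 1. It moved for Post against Pre from 0 in each experiment to 1 in the fit of all 38 libraries, which is *Mchr1*. That fit gives 1 joint estimate for both experiments, not a call in each. The cause was not tested. With single libraries left out the counts ran from 4 to 5 for HiT against Pre, 6 to 7 for Dep against Pre, 4 to 6 for HiT against Fed and 4 to 6 for Mid against Pre of experiment #2. It rose to 6 in HiT against Fed with upper-quartile scaling and in the fit of both groups alone, to 7 in Mid against Pre of experiment #2 in the fit of all 38 libraries, and fell to 4 in Post against Mid with lane as a term. *Rrad* passed the test in HiT against Fed in the fit of both groups alone (FDR 0.0287) and without Mid 3 (FDR 0.0481) or Mid 6 (FDR 0.0448). No called fold change reversed its sign.

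Samples with the same replicate number did not deviate together in the median (r −0.038 over 60 pairs, against 0.031 over 260 other pairs). Single pairs ran from −0.487 to 0.47, with 19 over 0.1. A median over all groups cannot tell whether the numbers pair the samples of some groups. With the replicate block, 5 clusters were called in HiT against Pre, 6 in Dep against Pre and 0 in Post against Pre of experiment #1. With the replicate block, Post against Pre of experiment #2 called 0 of the 7 and 0 of all clusters; the other comparisons of experiment #2 share no numbers.

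Over all clusters, calls fell from 2783 to 1444 in Dep against Pre, from 3604 to 1974 in HiT against Pre, from 4657 to 2961 in HiT against Fed, from 2861 to 1108 in Dep against HiT, from 3253 to 1458 in Mid against Pre, from 199 to 21 in Post against Pre and from 1207 to 6 in Fed against Pre of experiment #1 without TMM. Fed against Pre had 631 in a fit of both groups alone, and Post against Pre 310 with DESeq2. In experiment #2, Post against Mid fell from 1772 to 485 with lane as a term, and Post against Pre had 12 calls, 116 by the likelihood ratio test and 169 by DESeq2. The fit of all 38 libraries called 4009 clusters in place of 1053 in Mid against Pre, 4527 in place of 1772 in Post against Mid, and 731 in Post against Pre. Upper-quartile scaling split the calls into 1171 higher and 1841 lower in Dep against Pre, 1508 and 2139 in HiT against Pre, and 1282 and 2308 in Mid against Pre of experiment #1, in place of 1659 and 1594. Without TMM the splits were 701 and 2260 in HiT against Fed (reported 2507 and 2150), 486 and 2364 in Dep against Fed (2005 and 2155), 534 and 924 in Mid against Pre of experiment #1 and 2 and 4 in Fed against Pre (634 and 573). In Post against Mid of experiment #2 they were 1105 and 671 without TMM and 1090 and 779 with upper-quartile scaling (836 and 936). A window of 100 bp in place of 500 bp held 4 of the 7 clusters, leaving out *Sec14l5*, *Mchr1* and the upstream promoter of *Prkg1*.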
